A study of Homo sapiens with 2 samples.

Results

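The antioxidant and xenobiotic defence genes are a list of 44 genes that detect oxidants or foreign chemicals and remove them, among 20033 protein-coding genes in the annotation. The list is fixed by gene names, and no measured value enters the rule, although it was drawn up with earlier results of these data known. Chromatin accessibility at these genes was read from ATAC-seq of B2B cells, in which the Tn5 transposase cuts and tags accessible DNA. B2B is BEAS-2B, an immortalized non-cancerous line of human bronchial epithelial cells, labelled WT and given no treatment in the labels. There were 2 replicates, called biological replicates in the series' design, and both come from this 1 established line. With 1 condition there is nothing to compare between groups, and accessibility in these cells says nothing of how the loci respond to a stress.

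The airway lining meets inhaled oxidants and smoke, and its cells carry inducible defences. NRF2, encoded by NFE2L2, is held in the cytoplasm and marked for degradation by KEAP1. When KEAP1 cysteines are modified, NRF2 enters the nucleus, pairs with a small MAF protein and binds antioxidant response elements (AREs) at genes for glutathione synthesis, thioredoxin recycling, NADPH supply and detoxification, where BACH1 competes as a repressor. The aryl hydrocarbon receptor AHR pairs with ARNT, binds xenobiotic response elements (XREs), and is restrained by its own targets AHRR and TIPARP. AP-1, the factor family the study is about, binds a motif that overlaps some AREs.

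The 2 peak lists hold 28735 and 36162 peaks on chromosomes 1 to 22, X and Y. Fold enrichment is the linear ratio of fragments at a peak's summit to the local background, with 1 added to each. The weakest summits held 16 fragments in replicate 1 and 13 in replicate 2, and the median summits 35 and 30, and more were needed where the local background was high. A promoter without a peak was therefore not detectable as open at this depth, which does not show that it is closed. The cell type was checked against its markers. A promoter peak in both replicates was found at 52.2% of all protein-coding genes, at 1 of 12 epithelial marker genes (KRT18; 8.33%, 95% Wilson interval 1.49 to 35.4) and at 8 of 12 mesenchymal marker genes (66.7%, 39.1 to 86.2). The mesenchymal share thus lay near that of all genes, while 11 of the 12 epithelial marker promoters had no peak. Peaks at most of the markers that define the labelled cell type were not detected, and the cells are called B2B cells below.

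Sequences that carry the elements are shown first. A core ARE was searched as TGACNNNGC, an extended ARE as TGANTCAGC, an XRE as TNGCGTG and AP-1 as TGANTCA, on both strands within 100 bp of the summits. By construction every extended ARE is also an AP-1 match, and a site such as TGACTCAGC matches core ARE, extended ARE and AP-1 together. Despite its name, the extended ARE is a separate spelling and not a longer or stricter core ARE. It matches TGACNNNGC only where its N is C. The first set holds 6 members with the strongest shared region by mean fold enrichment, among the regions with either ARE spelling. A shared region is one with a peak of each replicate. GSR, whose promoter region (12.5 and 9.96) holds a core ARE and would have come before ME1, is left out because no sequence from its chromosome is printed. Capitals mark the match for which each window is shown, read 5′ to 3′ on the strand of the member gene in hg38. A match describes letters and is not evidence of binding.
PGD promoter, chr1:10398833-10398901, plus strand, 197 bp upstream of the TSS: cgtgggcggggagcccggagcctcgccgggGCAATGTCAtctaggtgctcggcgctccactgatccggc
TKT upstream region, chr3:53270217-53270285, minus strand: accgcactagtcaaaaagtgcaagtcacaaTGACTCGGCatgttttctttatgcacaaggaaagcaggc
SRXN1 promoter, chr20:653434-653502, minus strand, 268 bp upstream of the TSS: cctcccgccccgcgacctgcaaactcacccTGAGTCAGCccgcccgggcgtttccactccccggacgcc
PRDX1 flank, at the promoter shared by CCDC163 and MMACHC, chr1:45500229-45500297, minus strand: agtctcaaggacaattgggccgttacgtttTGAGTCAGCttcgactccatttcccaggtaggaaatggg
ME1 promoter, chr6:83431022-83431050, minus strand, 15 bp downstream of the TSS: gctgcagtcaGCACCGTCAccccagcagc
FTL flank, at the promoter shared by GYS1 and RUVBL2, chr19:48993289-48993317, plus strand: gaaggaggccGCAGCGTCActgagcccac

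The SRXN1 and PRDX1 windows hold the extended ARE, and the other 4 hold the core ARE alone. The ME1 and FTL windows, and that of GSTP1 below, were cut to 10 bases on each side because they adjoin an annotated UTR. The second set was chosen after the values were seen, because these sites are referred to below. The MAFG window also holds a core ARE in lower case, gccgcgtca.
GSTP1 promoter, chr11:67583736-67583764, plus strand, 62 bp upstream of the TSS: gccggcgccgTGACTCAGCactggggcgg
OSGIN1 promoter, chr16:83953111-83953179, plus strand, 95 bp upstream of the TSS: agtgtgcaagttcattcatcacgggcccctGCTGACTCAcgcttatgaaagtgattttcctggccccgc
MAFG first kilobase, chr17:81927093-81927161, minus strand, 608 bp downstream of the TSS: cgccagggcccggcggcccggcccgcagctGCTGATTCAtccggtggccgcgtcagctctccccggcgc
AKR1C1 upstream region, chr10:4943096-4943164, plus strand: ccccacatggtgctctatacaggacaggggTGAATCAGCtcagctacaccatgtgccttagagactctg
AKR1C2 upstream region, chr10:5018979-5019047, minus strand: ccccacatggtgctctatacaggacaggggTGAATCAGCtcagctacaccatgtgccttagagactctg
ABCC1 intron, chr16:16022178-16022246, plus strand: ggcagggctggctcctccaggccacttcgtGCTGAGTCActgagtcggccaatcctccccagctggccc
ALDH3A1 upstream region, chr17:19753091-19753159, minus strand: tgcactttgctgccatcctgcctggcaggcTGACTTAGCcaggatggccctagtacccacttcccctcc

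The AKR1C1 and AKR1C2 windows were identical over the 69 bases printed, and over a wider window 94% of the bases were the same. AKR1C1, AKR1C2 and AKR1C3 are paralogs, so fragments at these sites could have been placed at the wrong copy, and their values are uncertain. How reads with several placements were treated is not given in the sources used here.

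Most of the defence genes had open promoters in B2B cells. Promoter peaks were those within 1 kb of the canonical TSS in GENCODE 44. The windows of NFE2L2, NFE2L1, MAFG, AHR, TIPARP, NQO1 and SOD1 also hold the start of a long noncoding RNA on the opposite strand. That of AHR holds another protein-coding start as well. Peaks in these windows need not belong to the member alone. Of the 44 members 33 had a promoter peak in both replicates (75%, 95% Wilson interval 60.6 to 85.4), 3 had a peak in replicate 2 alone, and 8 had none. The share was 52.2% over all protein-coding genes. Glutathione synthesis and recycling, the thioredoxin system, NADPH supply and the AHR regulators had a peak in both replicates at 4 of 4 genes each, while carbonyl and aldehyde enzymes had it at 2 of 7. These roles also differ in CpG sites within 500 bp of the TSS. The carbonyl and aldehyde enzymes had 9 to 25, apart from ALDH1A3 with 151. The thioredoxin genes had 75 to 117, NADPH supply 76 to 125, the AHR regulators 70 to 118 and the glutathione genes 15 to 125. The part of CpG content in this contrast was not tested. Where a promoter was open, its peak was of ordinary height. The members' highest promoter peaks had a median fold enrichment of 7.45 in replicate 1 and 8.29 in replicate 2 (7.87 ± 0.596, SD, n = 2), beside 7.97 and 9.06 (8.52 ± 0.773) over all genes with such a peak. The median summit held 44 and 42 fragments, beside 46 and 43 over all genes.

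**Figure D1:**
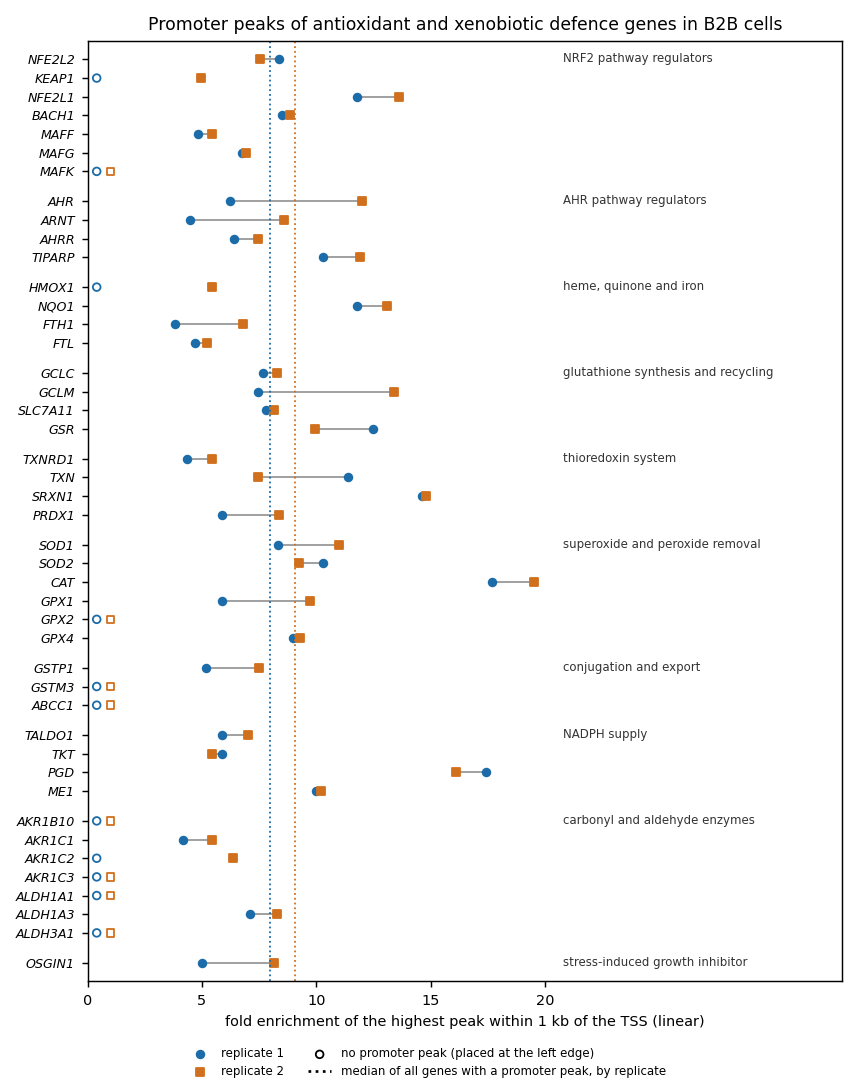
Fold enrichment (linear, x axis) of the highest promoter peak of each defence gene (y axis, grouped by role) in replicate 1 (circles) and replicate 2 (squares); open symbols at the left edge mark no promoter peak, and dotted lines the replicate medians over all genes with one, 7.97 and 9.06. CAT, PGD and SRXN1 lie far to the right of both lines, whereas the carbonyl and aldehyde enzymes are mostly without a peak.

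The NRF2 regulators had a peak in both replicates at 5 of 7 promoters. NFE2L2 (chr2:177218667-177392756, minus strand) had a fold enrichment of 8.36 and 7.53 in replicates 1 and 2 on 75 and 55 fragments. Its window held 3 shared regions, with the strongest at the TSS and weaker ones 691 bp upstream (4.18 and 3.88) and 962 bp downstream (5.55 and 5.33). NFE2L1, a relative that restores proteasome genes, had the highest value of the group, at 11.8 and 13.6. BACH1, the repressor, had 8.49 and 8.84. Its replicates differed by less than those of most members, with an SD of 0.245.

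The 3 small MAF genes, whose proteins lack an activation domain and pair with NRF2 or BACH1, were unlike in their promoters. MAFG had 6.75 and 6.92 at its main peak, and MAFF had 4.85 and 5.44. MAFG also had a weaker shared region 652 bp downstream (3.47 and 4.07), which holds the extended ARE printed above and was 1 of 4 own-promoter regions with that spelling. MAFK had no promoter peak in either replicate, although its promoter is rich in CpG, with 113 CpG sites within 500 bp of the TSS. The nearest peaks, 3.17 and 2.08 kb downstream, had folds of only 3.41 and 3.69 on 31 and 27 fragments, so the local background was high there. A shared region in its intron 6698 bp downstream (9.05 and 6.73) lies at another annotated start of MAFK, so with any annotated TSS MAFK counts as open in both replicates.

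KEAP1, the sensor that targets NRF2 for degradation, had a promoter peak in replicate 2 alone. It had a fold enrichment of 4.98 on 21 fragments, with the summit 563 bp downstream of the TSS, and the nearest peak in replicate 1 lay 62.6 kb upstream. The value in replicate 2 was at percentile 9.45 of all promoter peaks of that replicate, so it was among the weaker calls. Within 100 bp of the KEAP1 summit, a window that runs past the end of the peak, lay 2 core ARE matches. At least 1 such match was found at 11.1% of all promoter regions shared by both replicates.

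The AHR regulators all had a promoter peak in both replicates. AHR, the ligand-activated receptor, had 6.24 in replicate 1 and 12 in replicate 2, on 35 and 52 fragments. Its partner ARNT had 4.5 and 8.61. These were the largest ratios of replicate 2 to replicate 1 among the members, so the place of both genes in the list is uncertain. TIPARP, an ADP-ribosyltransferase induced by AHR that restrains it, had 10.3 and 11.9, and AHRR, the AHR repressor, had 6.41 and 7.47.

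Among the genes of heme, quinone and iron handling, NQO1 stood above the rest. NQO1, the quinone reductase and a textbook NRF2 target, had 11.8 and 13.1 on 67 and 57 fragments, although its promoter holds only 39 CpG sites. The ferritin chains FTH1, at 3.81 and 6.8, and FTL, at 4.68 and 5.21, were open in both replicates with low peaks. HMOX1, the heme oxygenase that frees iron and is held off by BACH1, had a peak in replicate 2 alone (5.44, 23 fragments, 59 bp downstream of the TSS). In replicate 1 the nearest peak lay 18.8 kb downstream, at the promoter of MCM5. A shared region 30.1 kb upstream of HMOX1 had 7.1 and 9.74, above its promoter value in replicate 2.

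The glutathione genes were open in both replicates at 4 of 4 promoters. GCLC, the catalytic subunit of the enzyme that limits glutathione synthesis, had 7.65 and 8.3. Its modifier subunit GCLM had 7.45 and 13.4, the largest SD among the members (4.18). SLC7A11, which imports cystine for this synthesis, had 7.8 and 8.16 although its promoter holds only 15 CpG sites. GSR, which reduces oxidized glutathione, had 12.5 and 9.96 and was among the 6 members with the higher value in replicate 1.

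The thioredoxin genes ranged widely. SRXN1, which repairs overoxidized peroxiredoxins, had 14.6 and 14.8 on 83 and 73 fragments, and its summit lay 273 bp upstream of the TSS in both replicates, beside the extended ARE printed above. TXN had 11.4 and 7.45, a ratio of 0.654, the lowest among the members. TXNRD1, the thioredoxin reductase, had only 4.33 and 5.44, and PRDX1, a peroxide-removing enzyme, had 5.89 and 8.38. The replicate values of SRXN1 did not overlap with those of the other 3 genes.

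CAT had the promoter peak with the highest fold enrichment of the list. Catalase, which breaks down hydrogen peroxide in peroxisomes, had 17.7 and 19.5 on 101 and 85 fragments (chr11:34438934-34472060, plus strand; 18.6 ± 1.28, SD, n = 2), at percentiles 95.6 and 97.4 of all promoter peaks. The superoxide dismutases were lower, with SOD1 at 8.32 and 11 and the mitochondrial SOD2 at 10.3 and 9.24. The glutathione peroxidase GPX4, which removes lipid peroxides, had 8.98 and 9.28, and GPX1 had 5.89 and 9.74. GPX2, a form known from gut epithelium, had no promoter peak, and its nearest peaks lay 28.1 and 28 kb away at the promoter of CHURC1.

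All 4 genes of NADPH supply had open promoters, and PGD was the second of the list by fold enrichment. PGD, a dehydrogenase of the pentose phosphate pathway, had 17.4 and 16.1 on 108 and 103 fragments (16.7 ± 0.95, SD, n = 2). By summit fragments PGD lay above CAT, with 101 and 85, in each replicate, so their order depends on the measure. Malic enzyme ME1 had 10 and 10.2. The pathway's TALDO1, at 5.89 and 7.02, and TKT, at 5.89 and 5.44, were lower than both in each replicate. The 5 highest means were those of CAT (18.6), PGD (16.7), SRXN1 (14.7), NFE2L1 (12.7) and NQO1 (12.5). The lowest value of CAT, 17.7, was only just above the highest of PGD, 17.4, and the values of NFE2L1 and NQO1 overlapped.

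Conjugation, export and carbonyl reduction held most of the promoters without a peak. GSTP1, the glutathione transferase common in lung, had 5.2 and 7.48, whereas its relative GSTM3 and the exporter ABCC1 had no promoter peak. ABCC1 has a CpG-rich promoter with 111 CpG sites, while GSTM3 has 15. Of the carbonyl and aldehyde enzymes ALDH1A3, which makes retinoic acid, had 7.1 and 8.28. AKR1C1 had 4.16 and 5.44 on 23 fragments in each replicate. AKR1C2 had 6.34 in replicate 2 alone, on 27 fragments, within the limit of its paralogs given above. AKR1B10, AKR1C3, ALDH1A1 and ALDH3A1 had none. ALDH3A1 had a strong shared region 4.9 kb upstream (7.62 and 10.2), which holds the core ARE printed above, while the nearest peaks to ALDH1A1 lay 224 kb away in replicate 1 and 24.7 kb in replicate 2. OSGIN1, an oxidative stress-induced growth inhibitor, had 5.02 and 8.16.

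The other genes of the same pathways were much alike in this measure. Of 61 listed genes that are not members, 49 had a promoter peak in both replicates (80.3%, 68.7 to 88.4), beside 52.2% of all protein-coding genes. Their median fold enrichment was 7.98 ± 0.708 (SD, n = 2). These genes had a median of 77 CpG sites within 500 bp of the TSS, beside 66 over all genes, and the part of this was not tested. The highest fold enrichments were those of the glutathione-cycle enzyme GGCT (20.3 and 19.4), SESN3 (18.7 and 18), a sestrin, and the mitochondrial glutaredoxin GLRX5 (18.4 and 15.8). GPX7, GSTM4, ABCC2, ABCC3, PRDX2, TXNRD2, TXNRD3 and SOD3 had no promoter peak, and GSTM2, SLC48A1 and CBR1 were among those with one in replicate 2 alone.

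Replicate 2 gave the higher fold enrichment at 27 of the 33 members open in both (81.8%), beside 71.5% of all such genes. The ratio of replicate 2 to replicate 1 ran from 0.654 (TXN) to 1.93 (AHR) with a median of 1.12, beside 1.14 over all genes. Across the 33 members the values of the replicates had a Spearman correlation of 0.747, and across all 10461 such genes 0.857. Genes are not independent replicates, and these are descriptions. All 3 members with a peak in 1 list had it in replicate 2, the list with more peaks and the lower detection limit.

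**Figure D2:**
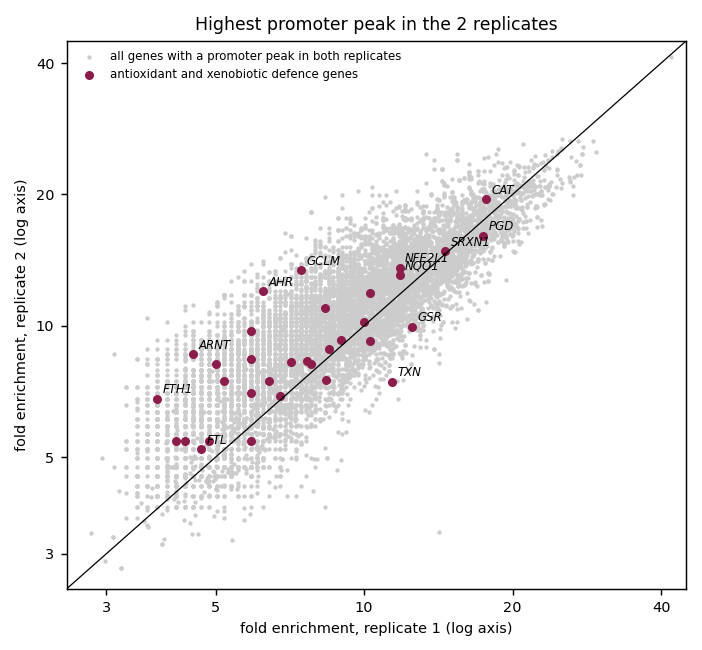
Fold enrichment of the highest promoter peak in replicate 1 (x, log axis) against replicate 2 (y, log axis) for the 10461 genes with one in both (grey) and the 33 defence genes among them (dark); the line marks equal values. Most defence genes lie above the line, AHR (6.24 and 12) and GCLM (7.45 and 13.4) far above it, and TXN (11.4 and 7.45) below.

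Promoters with a peak in both replicates and those without a detected peak differed in CpG content. Members open in both replicates had a median of 100 CpG sites within 500 bp of the TSS (9 to 151). Members with a peak in neither had a median of 15 (9 to 113). Over all genes the medians were 80 and 24. The defence genes had more CpG sites than genes at large, with a median of 90.5 beside 66. At the shares seen in all genes of like CpG count, 25.1 of the 44 members (57%) would be open in both replicates, beside the 33 counted. No test was run of this gap. Among the members with 41 CpG sites or fewer, 4 of 11 were open, namely SLC7A11, AKR1C1, NQO1 and OSGIN1. Over all genes of the 3 groups they fall in, the shares were 2.1%, 6.58% and 20.9%. MAFK and ABCC1 had no canonical promoter peak in a CpG group where 74.3% of genes had one. In that group 10 of 12 members were open in both replicates, so the members did not fall below that share.

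**Figure D3:**
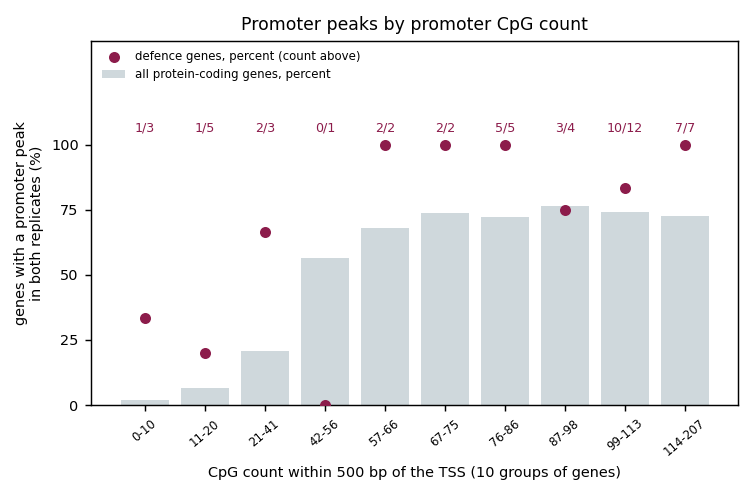
Percent of all protein-coding genes with a promoter peak in both replicates (bars, y axis) in 10 groups by CpG count within 500 bp of the TSS (x axis), with the defence genes as dots and as counts above. The bars climb from 2.1% to 76.3%, and in the 3 groups with the fewest CpG sites 4 of 11 defence genes were open.

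Away from promoters, shared regions were counted in the gene body or within 50 kb of the TSS. Near the members lay 130 shared regions, of which 42 were at the members' own promoters, 33 at promoters of other genes and 55 at no canonical promoter, called non-promoter regions here. Of these 55, 10 lay within 1 kb of another annotated start of the same member, at MAFK (2), TXNRD1 (2), AHR, AHRR, GCLC, TALDO1, TKT and AKR1C2, and may be promoters of other transcripts. Within 1 kb of any annotated start of a protein-coding gene lay 13 of the 55 (23.6%), beside 11.6% of all regions at no canonical promoter. With every annotated start of a protein-coding gene left out, a setting added after the values were seen, 42 regions remained and 24 of 44 members had at least 1 (54.5%), beside 38.2% of all genes. Another 5 non-promoter regions were found in replicate 1 alone and 29 in replicate 2 alone. At least 1 non-promoter shared region was found for 27 of 44 members (61.4%, Wilson interval 46.6 to 74.3), beside 45% of all protein-coding genes. The median was 1 per member and 0 per gene at large. Of the 55 regions 22 lay in introns, 1 in an exon, 8 in the span of a longer transcript only and 24 outside the gene. Their median fold enrichment was 5.83, beside 6.74 over all non-promoter shared regions. Gene length and the number of peaks nearby move with such counts, and their part was not tested.

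AHR and TXNRD1 had the most, with 6 each, followed by AHRR with 5, TALDO1 with 4, and BACH1, MAFK, ABCC1 and TKT with 3 each. Of the 6 at AHR, 4 lie more than 50 kb upstream and count only because a long annotated transcript spans them, the strongest at 203 kb with 10.2 and 11.3. Nearer to its TSS, AHR had a region 22.4 kb upstream (8.32 and 9.97) and an intronic one 6478 bp downstream (4.68 and 4.76). With the canonical transcript as the gene body, a setting added after the values were seen, 49 regions remained in place of 55.

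TXNRD1, whose canonical promoter peak was weak, had 6 other regions, each with a higher mean fold enrichment than that promoter. It had a region 38 kb upstream (8.49 and 10.4) and 5 in introns. The intronic region 3799 bp downstream of the TSS had 6.24 and 8.16 and held a core ARE. Those 71.1 and 73 kb downstream lie at other annotated TXNRD1 starts and may be promoters of other transcripts. AHRR had 4 intronic regions, and that 78.3 kb downstream of the TSS was strong, at 11.3 and 12.9 on 64 fragments in each replicate, above the AHRR promoter in both. AHRR is the only member on chromosome 5, where the median peak held 40 and 35 fragments, beside 35 and 30 over all peaks, and the part of this in its values was not tested.

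By fold enrichment TKT carried the strongest non-promoter region of the list. It lies 14.2 kb upstream (chr3:53269922-53270504) with 13.5 and 17.4, well above the TKT promoter at 5.89 and 5.44, and holds the core ARE printed above 17 bp from the summit. Another region in a TKT intron 19.6 kb downstream (6.24 and 5.44) holds an extended ARE and lies at another annotated TKT start. TALDO1 had an intronic region 15.5 kb downstream at 5.37 and 8.61. GCLC had a region 2984 bp upstream, in the span of a longer transcript, at 10.5 and 7.96. Both also lie at other annotated starts of these genes, while GCLM and SLC7A11 had no non-promoter region shared by both replicates.

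ABCC1 and ALDH1A3 differed in where their regions lay. ABCC1, without a promoter peak, had 3 intronic regions, and that 72.6 kb downstream of the TSS (5.89 and 6.8) holds the site printed above, which matches core ARE, extended ARE and AP-1. ALDH1A3 had a region 30.1 kb upstream (7.62 and 8.84) slightly above its promoter in each replicate. The AKR1C1 and AKR1C2 regions printed above had 4.85 and 7.7 at AKR1C1 and 6.24 and 4.98 at AKR1C2. CAT, NQO1, SRXN1, PRDX1 and PGD, all open at the promoter, had no non-promoter shared region within these limits.

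**Figure D4:**
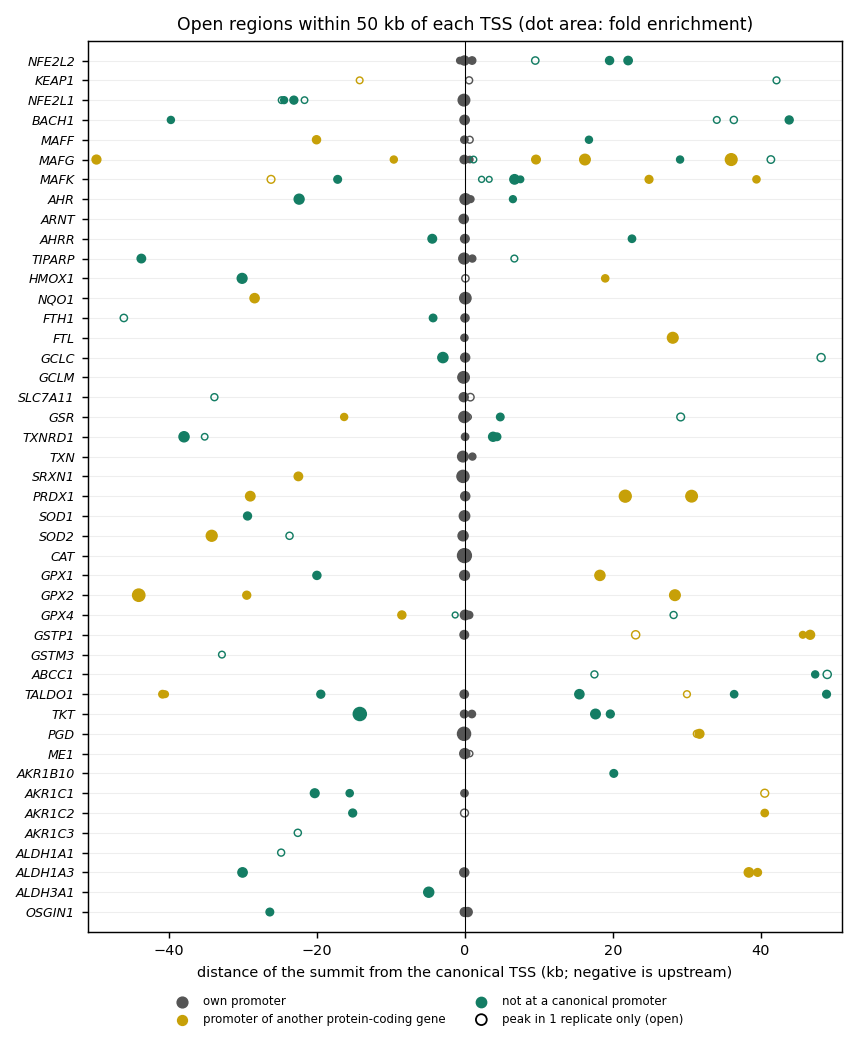
Summits of regions within 50 kb of the canonical TSS of each defence gene (y axis) by distance from the TSS in kb (x axis), with dot area in proportion to fold enrichment; filled dots are shared by both replicates, open dots come from 1 replicate, and colour separates own promoters, promoters of other genes and regions at no canonical promoter. The TKT region 14.2 kb upstream is the largest dot off the promoters, and KEAP1, GSTM3, AKR1C3 and ALDH1A1 have open dots only.

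The motif matches were compared with all shared regions of the same class. Of the 42 regions at the members' own promoters, 8 held a core ARE (19%, Wilson interval 9.98 to 33.3), beside 11.1% of all promoter regions. They belonged to MAFF, MAFG, ARNT, GSR, TXNRD1, GSTP1, PGD and ME1. The extended ARE was in 4 (9.52%, 3.77 to 22.1), at MAFG, SRXN1, GSTP1 and OSGIN1, beside 0.968%. Of these sites only that of GSTP1 also matches the core spelling. An XRE was in 4 (9.52%), at NFE2L2, MAFG, AHRR and NQO1, beside 5.39%. AP-1 was in 6 (14.3%, 6.72 to 27.8), beside 3.73%, and these were the same 4 regions as for the extended ARE plus BACH1 and TXN. The extended ARE and AP-1 shares were the ones whose interval lay above the share of all promoter regions, while that of the core ARE included it. They are not separate results, since 4 of the 6 AP-1 regions are those with the extended ARE. The list also includes well-known NRF2 targets, and the part of that choice in the ARE shares was not tested. These counts rest on few regions, and members with several regions count more than the others, so no test was made.

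Outside promoters the shares were closer to those of the class. A core ARE was in 10 of the 55 regions (18.2%, 10.2 to 30.3), beside 13.1% of all non-promoter regions, and the extended ARE in 5 (9.09%), beside 7.96%. The regions with the extended ARE include those of AKR1C1 and AKR1C2, whose printed windows are identical and whose values are uncertain. An XRE was in 4 (7.27%, 2.86 to 17.3), beside 3.24%. AP-1 was in 22 (40%, 28.1 to 53.2), beside 40.2%. Of the 4 regions with an XRE 3 were introns of AHRR, with 3, 1 and 2 matches, and the other lay 20 kb upstream of GPX1. The XRE holds a CpG, and the part of CpG content in its share was not tested. The AHRR intron with 3 matches, 52.2 kb downstream of the TSS (5.2 and 4.67), is shown because it holds the most.
AHRR intron, chr5:373842-373995, plus strand, XRE matches in capitals, the second overlapping a core ARE, tgacggcgc: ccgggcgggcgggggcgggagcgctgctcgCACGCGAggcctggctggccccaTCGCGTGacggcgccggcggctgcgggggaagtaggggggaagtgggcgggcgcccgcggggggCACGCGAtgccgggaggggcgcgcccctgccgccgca

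**Figure D5:**
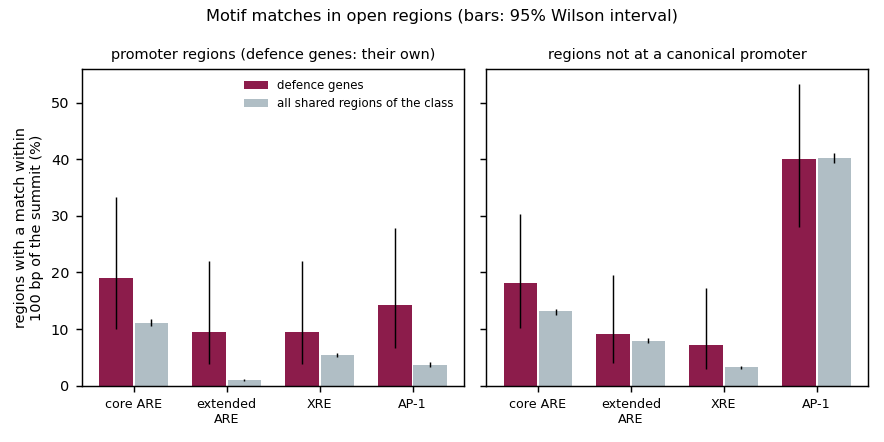
Percent of shared regions (y axis) with a match to each motif (x axis) within 100 bp of the summit, at promoters (left) and away from them (right), for the defence genes (dark) and all regions of the class (grey), with 95% Wilson intervals. At promoters the dark bar for the extended ARE is 9.52% beside 0.968%, and away from promoters the AP-1 bars are 40% and 40.2%.

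The extended ARE was also searched within 500 bp of each canonical TSS, whether open or not, a search chosen after the values were seen. It was found at 8 of 44 members (18.2%) and at 527 of 20033 genes (2.63%). It lay inside a shared region at 5 members (11.4%), namely GSTP1, OSGIN1, SRXN1, SOD1 and ME1, and at 162 genes (0.809%). At NQO1 (451 bp upstream), ALDH3A1 (290 bp upstream) and MAFK (278 bp downstream) no region shared by both replicates covered it. At NQO1 the open promoter region ended at the base before the element, with 0 bases between them, so the element lay at its edge. The list includes well-known NRF2 targets, and the part of that choice in the members' shares was not tested.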

How the data were processed

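ATAC-seq was performed on B2B cells, with 2 replicates. Reads were aligned by the authors with Bowtie2 (2.4.4) against hg38 and handled with SAMtools (1.13), duplicates were taken out with code of their own, and MACS2 (2.2.7.1) was run on each replicate. The shift of Tn5 cut positions, the q limit and the handling of mitochondrial reads are not given in the sources used here. The deposited peak lists give a fold enrichment, which is a linear ratio, a −log10 p-value, a −log10 q-value, a summit offset and a score. The score that the authors deposited equals 10 times the −log10 q, so it adds nothing and was left aside.

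Only chromosomes 1 to 22, X and Y were used, and no peak there ran past a chromosome end of the reference. Summit fragments were solved from the fold and p columns, and 99.9% of peaks gave a whole number within 0.01 on the −log10 p scale. The lists hold no read totals, so depth is known only at summits. Peaks of both replicates that overlapped by at least 1 bp were merged, and a shared region has a peak of each. Canonical TSS and gene spans were taken from GENCODE 44, and sequences from hg38. CpG sites were counted within 500 bp of the TSS, and genes were placed in 10 groups. Solving, merging and motif search were tested on simulated data. Python 3.11.15, numpy 2.4.6, pandas 2.3.3, scipy 1.17.1, pysam 0.24.0 and matplotlib 3.10.9 were used. With 1 condition no test between groups was made; intervals are 95% Wilson intervals, cover counting error only, and treat regions as independent.

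The members and the lists were chosen with earlier results of these data known. Replicate values were named for the regulators, well-known NRF2 targets, the 5 highest promoters, members that differed between replicates and the members with the most regions. Other members were named because each one is accounted for. No sequence from chromosome 8 is printed, and 1 of the other pathway genes is not reported here by name. Alternatives covered the promoter window, TSS choice, peak threshold, overlap, distance, motif window and spelling, CpG settings and each replicate alone.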

Additional observations from a re-analysis of the deposited data

How the results depend on the processing

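Across 10 results, 70 values were computed under other settings, of which 57 counted as the same and 13 had moved; none was reversed. A count within 1.5 times the main one counts as the same, as do other values within their SD or counting interval. Members with a promoter peak in both replicates numbered 35 with any annotated TSS. With 1 list alone, 33 members had a promoter peak in replicate 1 and 36 in replicate 2. Non-promoter regions near the members, 55 with both replicates, numbered 60 to 85 with each replicate left out (85 without replicate 1), since 1 list then suffices, and 42 away from every annotated start. Over all 130 shared regions near the members a core ARE was found in 15.4%, beside 12.2% of all shared regions. An XRE was found in 10.8%, beside 4.14%, and AP-1 in 23.1%, beside 25.1%. In the 75 member regions at promoters of any gene the XRE share was 13.3% (7.41 to 22.8), beside 5.39% of all promoter regions. The core ARE share was 9.23% within 50 bp of the summit, 25.4% over the whole peak and 7.69% in the extended spelling. The XRE share was 6.15% within 50 bp and 40.8% as GCGTG. These follow from the length of the window and spelling searched. The gap to genes of like CpG count was 18 percentage points, and 17.3 to 18.9 under other settings. The share of all genes open in both replicates ran from 49.9% to 56.1%. With 1 list alone it was 53.2% in replicate 1 and 57.9% in replicate 2.

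No peak had a summit under 16 fragments in replicate 1 or 13 in replicate 2, and more were needed over a high local background, which limits every absence given here. KEAP1, HMOX1 and AKR1C2 rest on replicate 2 alone. Peak height at a summit also depends on library depth, which the lists do not give. No paired analysis was possible because both replicates belong to 1 condition.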
